A study of Mus musculus with 12 samples.

Results

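The 10 genes Fos, Fosb, Jun, Junb, Egr1, Ier2, Ier3, Dusp1, Zfp36 and Atf3 are classical immediate early genes. They were taken by gene name from the 54532 genes of 2 deposited FPKM tables, and each name occurred in 1 row. Small intestinal RNA of C57BL/6J mice was sequenced. The gene for Piezo1, a mechanically gated channel that admits Ca2+, was knocked out in the intestinal epithelial cells of CKO mice, with floxed mice (flox) as their controls. Both genotypes were sampled uninjured (control) and after induction of necrotizing enterocolitis (NEC), a necrotic inflammation of the newborn bowel. Each of the 4 groups (flox control, CKO control, flox NEC, CKO NEC) had 3 libraries, 12 in all. The study's title places Piezo1 upstream of Ca2+ and the kinase CaMKII in NEC. The sources used here give neither the promoter driving Cre, nor the way NEC was induced, nor the mice's age. Since the labels do not tie libraries to separate mice, p-values measure the spread between libraries.

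Immediate early genes are transcribed within minutes of a stimulus, such as a growth factor, stress, stretch or a rise in Ca2+, without the need for new protein. Kinases carry the signal to factors already present on their promoters, among them serum response factor (SRF) and its partners and the CREB/ATF family. Many of the transcripts are short-lived because AU-rich elements in their 3' ends recruit decay factors. Fos and Jun family proteins pair to form AP-1, a dimeric transcription factor. Others are feedback inhibitors, such as Dusp1, a phosphatase that switches off MAP kinases, and Zfp36 (tristetraprolin), which binds AU-rich mRNA and speeds its decay. Because these genes respond so fast, the handling of a tissue before its RNA is fixed can induce them too, and the sources used here do not describe that handling.

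In flox intestine with NEC the members did not move as a block. Fos, Dusp1 and Atf3 rose, by 1.14, 0.74 and 0.52 on the log2 scale, whereas Jun, Junb and Ier3 fell, by 0.96, 0.75 and 0.36. In CKO intestine with NEC, Jun and Zfp36 fell and none of the 9 members tested rose. Over all genes tested, 28.7% rose and 27.8% fell in flox, and 17.5% rose and 20.4% fell in CKO. Calls in both directions are therefore not particular to the members. No member passed the threshold between the genotypes, in NEC or in control. The lowest unadjusted p of a member between genotypes was that of Fos in NEC, where its level was lower in all 3 CKO libraries than in any flox library. Of all genes tested there, 11.0% did not overlap between the genotypes.

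The stretches just upstream of Fos, Jun and Junb are shown because Fos rose in flox NEC while its potential partners Jun and Junb fell. Each is the 250 bases before the transcription start in RefSeq on GRCm38.p6, read 5' to 3' along the gene's own strand. Capitals mark matches to the cyclic AMP response motif, either its core TGACG or the longer TGACNTCA, searched on both strands.
Fos: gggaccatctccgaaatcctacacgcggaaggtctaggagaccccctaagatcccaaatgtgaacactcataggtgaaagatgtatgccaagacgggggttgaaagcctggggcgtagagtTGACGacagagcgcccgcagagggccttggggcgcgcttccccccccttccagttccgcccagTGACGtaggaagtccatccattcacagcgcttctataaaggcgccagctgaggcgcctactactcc
Jun: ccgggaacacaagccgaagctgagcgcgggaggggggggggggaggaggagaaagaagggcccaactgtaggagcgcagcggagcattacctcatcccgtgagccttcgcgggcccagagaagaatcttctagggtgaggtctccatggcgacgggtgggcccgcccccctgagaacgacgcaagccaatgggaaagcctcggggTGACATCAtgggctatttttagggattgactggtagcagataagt
Junb: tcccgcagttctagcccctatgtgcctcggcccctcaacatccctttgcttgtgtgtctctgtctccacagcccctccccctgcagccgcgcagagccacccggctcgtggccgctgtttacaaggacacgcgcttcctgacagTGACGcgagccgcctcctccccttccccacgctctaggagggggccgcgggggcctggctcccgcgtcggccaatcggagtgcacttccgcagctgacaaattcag
The Fos stretch is chr12:85473640-85473889 on the plus strand. The Jun stretch is chr4:95052223-95052472 and the Junb stretch chr8:84978749-84978998, both on the minus strand. Fos held TGACG at positions -129 to -125 and -66 to -62, counted back from -1 next to the start, and a TATAAA at -33 to -28. Jun held the longer form as TGACATCA at -45 to -38, and Junb held TGACG at -106 to -102.

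RefSeq stretches of this kind were at hand for 8 of the 10 members, and Egr1 and Ier2 were not included. TGACG was found in 5 of the 8 (Fos, Fosb, Junb, Dusp1 and Atf3), against 17.8% of 32851 promoter stretches of the same length. TGACNTCA was found in 2, Jun and Dusp1, against 7.49% of all stretches, and the Dusp1 match, TGACGTCA at -143 to -136, also contains TGACG on both strands. A CArG box, the site that SRF binds, was found in Zfp36 alone, as CCATAAAAGG at -58 to -49, against 1.47% of stretches. GCGNGGGCG, the motif of EGR factors, was found in Fosb and Zfp36, against 4.70%, and TATAAA (searched on the gene's strand) in Fos alone, against 7.59%. TGANTCA, an AP-1 motif, occurred in 0 of the 8 and in 6.75% of all stretches, and no other form of AP-1 site was counted as such. These are matches of letters in 1 window, which does not include every known control element of these genes. Of the members called in flox NEC, TGACG was in all 3 that rose (Fos, Dusp1 and Atf3). In Atf3 it lay on the opposite strand, as CGTCA at -7 to -3, near the start. Of the 3 that fell, Junb held TGACG, Jun held the longer TGACNTCA and Ier3 held neither. This is a description of 6 genes.

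Levels below are FPKM, reads scaled by gene length and by library size. Recovered reads numbered 13057724 to 16821130 per library. Judged by their values, the control and NEC tables were not on 1 scale. The library size implied by the FPKM was set against size factors over all 12 libraries, with the control mean as the unit. It was 0.999 to 1.002 in control and 0.892 to 0.918 in NEC. Levels across conditions are therefore given as FPKM rescaled by 1 set of size factors over all 12 libraries. Deposited NEC values are 0.15 log2 higher on average than the rescaled ones. Log2 changes and standard errors are from limma on log2(FPKM + 1), which understates the change of low genes, with p-values adjusted over all genes tested. Differences between genotypes were fitted on deposited values within 1 table, and those between NEC and control on rescaled values. A gene was tested if it reached 1 FPKM in at least 3 of the libraries fitted. Of the members 9 passed, and Fosb did not. Comparisons with a group in common share its 3 libraries and are not independent of each other.

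Piezo1 itself, checked first, was 1.09 to 1.44 deposited FPKM in flox control and 0.926 to 1.71 in CKO control, and 6.76 to 7.38 in flox NEC against 3.23 to 5.58 in CKO NEC. Neither genotype difference passed the threshold (adjusted p = 0.846 in control and 0.840 in NEC). The knockout is confined by its label to epithelial cells and the RNA is from whole tissue. The tissue label was borne out by enterocyte markers such as Apoa1 and Fabp1, of which all 8 were above 1 rescaled FPKM on average in every group. In bulk tissue, fewer cells of a type and less RNA per cell cannot be told apart.

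**Figure D1:**
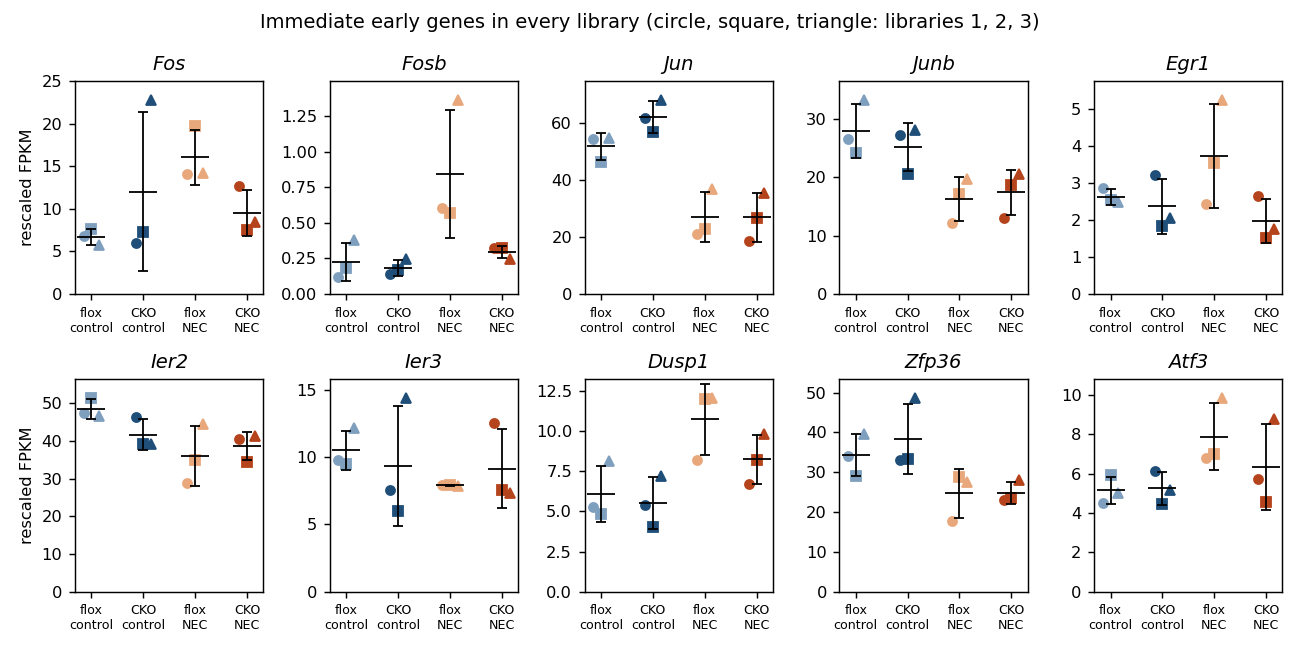
Rescaled FPKM of the 10 immediate early genes in each of the 12 libraries (points: circle, square and triangle for libraries 1, 2 and 3), with the mean and SD of each group of 3 (black). Jun lies between 46.4 and 67.9 in the 6 control libraries and between 18.5 and 36.9 in the 6 NEC libraries, and Fos reaches 22.7 in 1 CKO control library.

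Fos encodes the founding member of the AP-1 partners of Jun and cannot form a stable dimer with itself. Its rescaled FPKM in flox libraries 1 to 3 was 6.77, 7.62 and 5.71 in control, and 14.1, 19.7 and 14.3 in NEC. In CKO libraries it was 6.02, 7.33 and 22.7 in control, and 12.6, 7.53 and 8.51 in NEC. All 3 flox NEC libraries were above all flox controls, while the CKO groups overlapped because CKO control 3 held the highest Fos of the 12. In flox the ratio of means was 2.39, and the change was 1.14 ± 0.16 log2 (SE, adjusted p = 9.47e-04). In CKO the change was -0.11 ± 0.45 (adjusted p = 0.860), and without CKO control 3 it was 0.44 (adjusted p = 0.180). CKO control 3 was also the library with the highest Ier3, 14.4, and the highest Zfp36, 48.6.

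Within NEC, Fos was 15.9, 22.0 and 15.9 deposited FPKM in flox and 14.0, 8.40 and 9.27 in CKO. The highest CKO library was below the lowest flox library. The difference was -0.72 ± 0.21 log2 with an unadjusted p of 0.00972, and it did not pass over all genes (adjusted p = 0.840). Leaving out any 1 library kept it negative, and over all alternatives it lay between -0.93 and -0.57. In control the difference was 0.54 ± 0.43 (adjusted p = 0.433) and it was -0.00 without CKO control 3. The interaction, which asks whether the genotype difference itself differed between NEC and control, was -1.26 ± 0.53 (unadjusted p = 0.0354, adjusted p = 0.202), and -0.72 without CKO control 3 (adjusted p = 0.185).

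Fosb, a relative of Fos, was the lowest member in every group and rested on 11 to 132 reads per library. Rescaled FPKM was 0.116, 0.184 and 0.377 in flox control and 0.139, 0.166 and 0.246 in CKO control. It was 0.606, 0.567 and 1.36 in flox NEC, and 0.325, 0.320 and 0.249 in CKO NEC. Thus flox NEC stood above each of the other groups in every library, and CKO NEC stood just above CKO control. The ratio of means was 3.74 for NEC over control in flox and 1.62 in CKO. In NEC the flox mean was 2.85 times the CKO mean. An exact two-sided permutation test gave p = 0.1 for each of these 3 contrasts, which is the smallest p that 3 libraries against 3 allow. Fitted without the filter on low genes, none passed (adjusted p = 0.0778, 0.254 and 0.845 in that order).

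Jun, the partner that most AP-1 dimers contain, was the most abundant member in control tissue. In control its rescaled FPKM was 54.2, 46.4 and 54.8 in flox and 61.8, 56.7 and 67.9 in CKO. In NEC it was 20.9, 22.8 and 36.9 in flox and 18.5, 26.6 and 35.5 in CKO. Every NEC library of either genotype was below every control library. Jun fell by 0.96 log2 (SE 0.21, adjusted p = 0.00642) in flox and by 1.22 (SE 0.23, adjusted p = 0.00786) in CKO, so that the control mean was 1.93 and 2.31 times the NEC mean. Between genotypes the difference was -0.02 ± 0.28 in NEC (adjusted p = 0.993). In control all 3 CKO libraries were above all flox libraries, but the difference of 0.26 ± 0.13 did not pass (adjusted p = 0.229).

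Junb, which can replace Jun in AP-1 and is the weaker activator at many sites, followed Jun at a lower level. Rescaled FPKM in control was 26.5, 24.3 and 33.2 in flox and 27.2, 20.6 and 28.1 in CKO. In NEC it was 12.2, 17.2 and 19.7 in flox and 13.1, 18.7 and 20.5 in CKO. The highest NEC library was just below the lowest control library. Junb fell by 0.75 log2 in flox (SE 0.19, adjusted p = 0.0123), and its change in CKO was -0.52 ± 0.20 (adjusted p = 0.0765). The deposited Junb gene overlaps 351 bases of Prdx2, an antioxidant enzyme gene on the opposite strand, and the label names a kit that does not mark strand, so reads in the overlap cannot be told apart. Prdx2 was also lower in NEC, at 28.2 to 38.0 rescaled FPKM in the 6 NEC libraries and 41.7 to 58.8 in the 6 control libraries, and its part in the Junb values was not tested.

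Atf3, a stress-induced member of the CREB/ATF family that pairs with Jun proteins and often represses, was higher in flox NEC. Its rescaled FPKM was 4.51, 5.91 and 5.02 in flox control and 6.81, 6.98 and 9.84 in flox NEC, without overlap. In CKO it was 6.14, 4.47 and 5.19 in control and 5.71, 4.54 and 8.78 in NEC, with overlap. Atf3 rose by 0.52 log2 in flox (SE 0.16, adjusted p = 0.0257). That call was lost without the filter on low genes (adjusted p = 0.0629), without flox control 1 (0.0788) and without flox NEC 3 (0.0733). In CKO the change was 0.20 ± 0.22 (adjusted p = 0.509).

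Egr1, a zinc finger factor induced through SRF, was low, on 119 to 364 reads per library. In control its rescaled FPKM was 2.87, 2.54 and 2.47 in flox and 3.22, 1.84 and 2.06 in CKO. In NEC it was 2.43, 3.55 and 5.23 in flox and 2.65, 1.52 and 1.75 in CKO. The NEC genotypes overlapped in 1 library each, flox NEC 1 and CKO NEC 1. The genotype difference in NEC was -0.68 ± 0.24 log2 (unadjusted p = 0.0267, adjusted p = 0.840), and Egr1 and Fos were the 2 members with an unadjusted p under 0.05 there. NEC against control gave 0.34 ± 0.21 in flox (adjusted p = 0.198) and -0.18 ± 0.21 in CKO (adjusted p = 0.528). Without flox NEC 1 the flox value was 0.55 and passed (adjusted p = 0.0383).

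Ier2 encodes a small nuclear protein of the immediate early response and was the second most abundant member in control and the first in NEC. In control its rescaled FPKM was 47.4, 51.3 and 46.6 in flox and 46.4, 39.2 and 39.2 in CKO. In NEC it was 28.8, 34.9 and 44.4 in flox and 40.5, 34.3 and 41.2 in CKO. The flox NEC libraries were all below the flox controls, but the change of -0.44 ± 0.16 log2 narrowly missed the threshold (adjusted p = 0.0508). It passed in 5 of 14 alternatives, among them limma-voom on the recovered reads (adjusted p = 0.0277) and the fit without flox NEC 3 (0.0161). In CKO the change was -0.10 ± 0.14 (adjusted p = 0.586). In control all 3 CKO libraries were below all flox libraries, by 0.22 log2 on average (SE 0.12, adjusted p = 0.271).

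Ier3 encodes a protein that modulates survival and NF-kappaB and ERK signalling. Its rescaled FPKM was 9.81, 9.51 and 12.2 in flox control and 7.96, 7.91 and 7.86 in flox NEC. In CKO it was 7.55, 6.00 and 14.4 in control and 12.5, 7.58 and 7.33 in NEC. The flox groups did not overlap, and the CKO groups each had 1 high library, CKO control 3 and CKO NEC 1. Ier3 fell by 0.36 log2 in flox (SE 0.12, adjusted p = 0.0311). The call was lost when all 4 groups shared 1 estimate of the spread (adjusted p = 0.261), on the authors' own scaling of the tables (-0.22, 0.144), with limma-voom (0.0671), with a replicate block (0.0616), without the filter (0.0538) and without flox control 3, flox NEC 1, flox NEC 2 or flox NEC 3 (0.0511 to 0.0858). In CKO the change was 0.02 ± 0.32 (adjusted p = 0.960).

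Of the feedback inhibitors, Dusp1 had higher means in NEC and Zfp36 lower means. The rescaled FPKM of Dusp1 was 5.29, 4.87 and 8.11 in flox control and 8.20, 12 and 12.1 in flox NEC, so the closest libraries nearly met. In CKO it was 5.42, 4.01 and 7.22 in control and 6.74, 8.20 and 9.80 in NEC, with overlap. Dusp1 rose by 0.74 log2 in flox (SE 0.21, adjusted p = 0.0192), and in CKO the change was 0.51 ± 0.21 (adjusted p = 0.0909). The flox call was lost without the filter (adjusted p = 0.0539) and without flox control 1, flox control 2, flox NEC 2 or flox NEC 3 (0.0579 to 0.0659). The CKO value passed in 2 of 14 alternatives, among them the fit without CKO control 3 (0.69, adjusted p = 0.0392).

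Zfp36 acts on AU-rich transcripts that include its own. In flox its rescaled FPKM was 34.2, 29.2 and 39.7 in control and 17.7, 28.8 and 27.7 in NEC. In CKO it was 33.0, 33.5 and 48.6 in control and 22.9, 23.5 and 28.1 in NEC. The groups did not overlap in either genotype, although in flox the closest libraries, 28.8 and 29.2, were almost equal. Zfp36 fell by 0.59 log2 in CKO (SE 0.18, adjusted p = 0.0409), and in flox the change was -0.48 ± 0.20 (adjusted p = 0.0809). The CKO call was lost without the filter (adjusted p = 0.0813), on the authors' own scaling of the tables (0.0840) and without CKO control 1, CKO control 2, CKO control 3, CKO NEC 1 or CKO NEC 2 (0.0524 to 0.114). In flox Zfp36 passed in 2 of 14 alternatives, among them limma-voom (adjusted p = 0.0425).

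**Figure D2:**
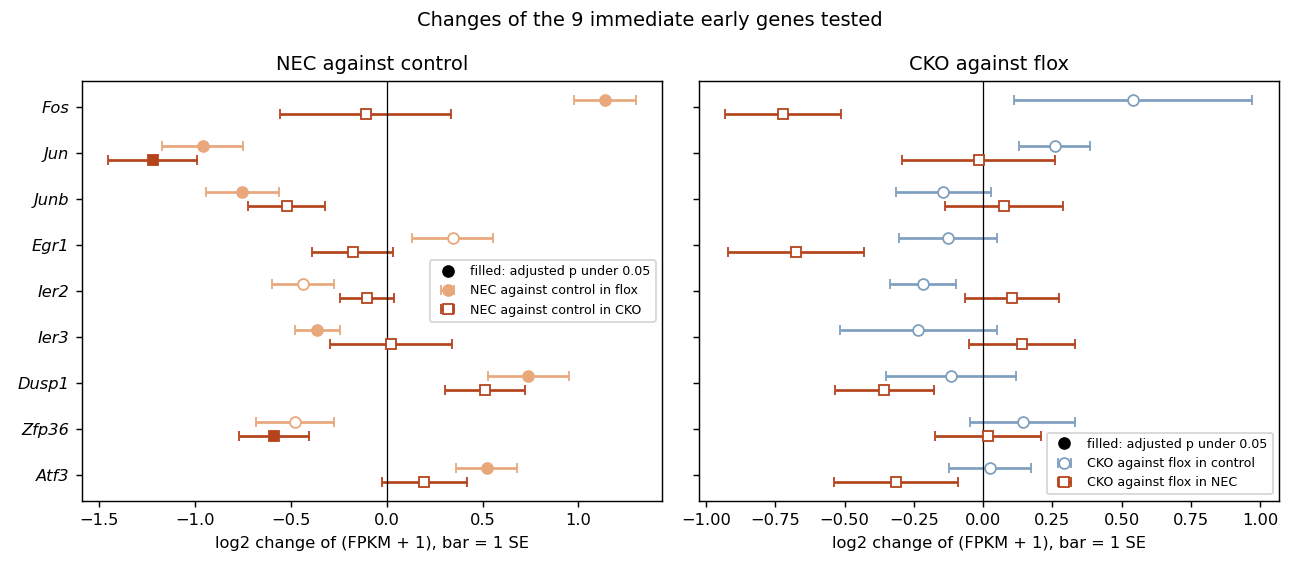
Log2 change with its standard error for the 9 members tested, from limma on log2(FPKM + 1), for NEC against control (left) and CKO against flox (right). Filled points passed an adjusted p of 0.05. In flox NEC against control Fos (1.14), Dusp1 (0.74) and Atf3 (0.52) passed as higher and Jun (-0.96), Junb (-0.75) and Ier3 (-0.36) as lower.

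Counted over the members, NEC against control in flox gave 3 that rose and 3 that fell of 9 tested. Over all genes 28.7% passed as higher and 27.8% as lower, so about as large a share of genes in general was called. The groups did not overlap for 3 members that were higher and 5 that were lower (64.9% of all genes tested did not overlap, in either direction). The median change of the 9 members was -0.36 against 0.01 over all genes. On the authors' own scaling of the tables, the genes called over the whole table were 4906 higher and 3123 lower, in place of 3935 and 3809, and 5 members were called, with Ier3 lost.

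NEC against control in CKO gave 0 members that rose and 2 that fell of 9, beside 17.5% of all genes higher and 20.4% lower. Without CKO control 3 it gave 1 that rose, Dusp1, and 1 that fell, Jun. The groups did not overlap for 3 members, all lower (Jun, Junb and Zfp36), against 53.7% of genes in either direction. The members' median was -0.11 against -0.03 over all genes. On the authors' scaling the whole table gave 3140 higher and 2062 lower, in place of 2330 and 2725, and among the members Dusp1 passed as higher and Jun as lower.

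Between genotypes in NEC, limma called 0 of the 9 members and 0% of all 13673 genes, and so did limma-voom. Of the members 2 had an unadjusted p under 0.05, as had 599 of all genes. The groups did not overlap for 1 member, Fos, against 11.0% of all genes. In control, limma called 0 of 9 members and 0.00752% of genes (1 of 13300), limma-voom called 2 genes, and 3849 genes but no member had an unadjusted p under 0.05. The groups did not overlap for 2 members, Jun and Ier2, in opposite directions, against 34.5% of genes. The interaction called 0 of 9 members and 1.22% of genes, with Fos the only member under an unadjusted p of 0.05. None of these shares sets the members apart from the rest of the table.

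Because FPKM is per length, levels can be ranked between genes. In flox control Jun (51.8 ± 4.69 rescaled FPKM, SD, n = 3) and Ier2 (48.4 ± 2.55) overlapped, and in CKO control Jun (62.1 ± 5.58) was above Ier2 (41.6 ± 4.15) in every library. In NEC the order was turned, with Ier2 first (36.0 ± 7.87 in flox, 38.7 ± 3.79 in CKO) and Jun next (26.9 ± 8.76 and 26.9 ± 8.49), but these neighbours were not separated in every library. Zfp36 and Junb held the third and the fourth place in all 4 groups. Fos took the sixth place in flox control, below Ier3 in every library, and the fifth in flox NEC, where it was above Dusp1 in every library and had an almost equal mean to Junb (16.0 ± 3.17 and 16.4 ± 3.78). Egr1 and Fosb were the lowest of the 10 in every group, each below its upper neighbour in all libraries.

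The ratio of 2 genes within a library does not depend on how libraries are scaled. These ratios were chosen after the values had been seen and restate them, so they are given as a description with no test. Fos to Jun was 0.125, 0.164 and 0.104 in flox control and 0.677, 0.862 and 0.386 in flox NEC. In CKO it was 0.0974, 0.129 and 0.335 in control and 0.683, 0.283 and 0.240 in NEC. The flox groups were far apart, by 4.72-fold in geometric mean, whereas the CKO groups overlapped (2.22-fold) through CKO control 3 alone, since the other CKO controls were below all CKO NEC libraries. Between genotypes in NEC the CKO mean was 0.590 of the flox mean and the groups overlapped.

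For Fos to Junb too, all flox NEC values (1.15, 1.15 and 0.725) were above all flox control values (0.255, 0.314 and 0.172), a 4.12-fold difference. In CKO the values were 0.221, 0.357 and 0.810 in control and 0.964, 0.404 and 0.415 in NEC, with overlap (1.36-fold) again through CKO control 3 alone. For Junb to Jun the CKO groups did not overlap and the flox groups did. In CKO it was 0.441, 0.362 and 0.414 in control and 0.708, 0.700 and 0.578 in NEC (1.63-fold), and in flox it was 0.490 to 0.606 in control and 0.533 to 0.751 in NEC.

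**Figure D3:**
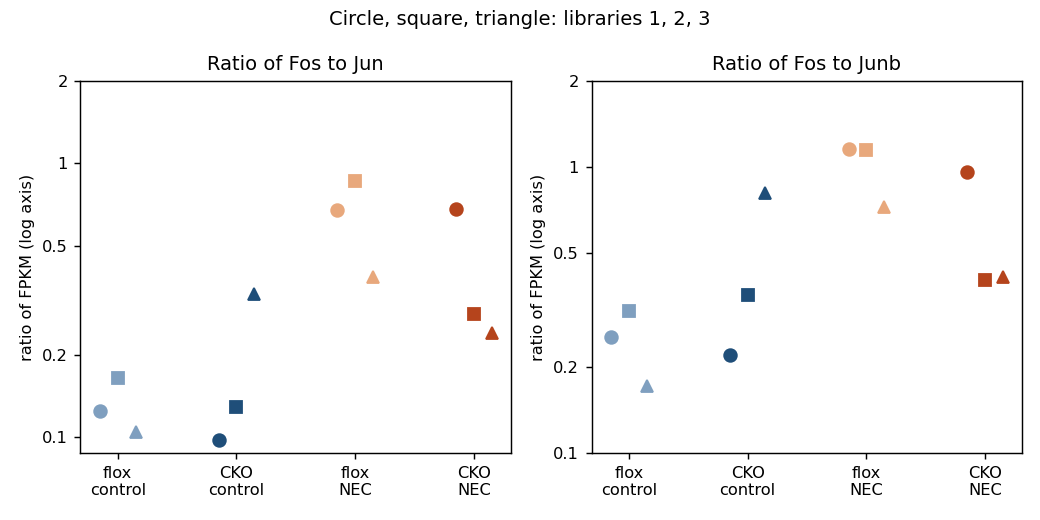
Ratios of FPKM within each library (log axis) for Fos to Jun and Fos to Junb, by group, with a point for each library. Fos to Jun lies at 0.104 to 0.164 in flox control and at 0.386 to 0.862 in flox NEC, and the CKO groups overlap.

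**Figure D4:**
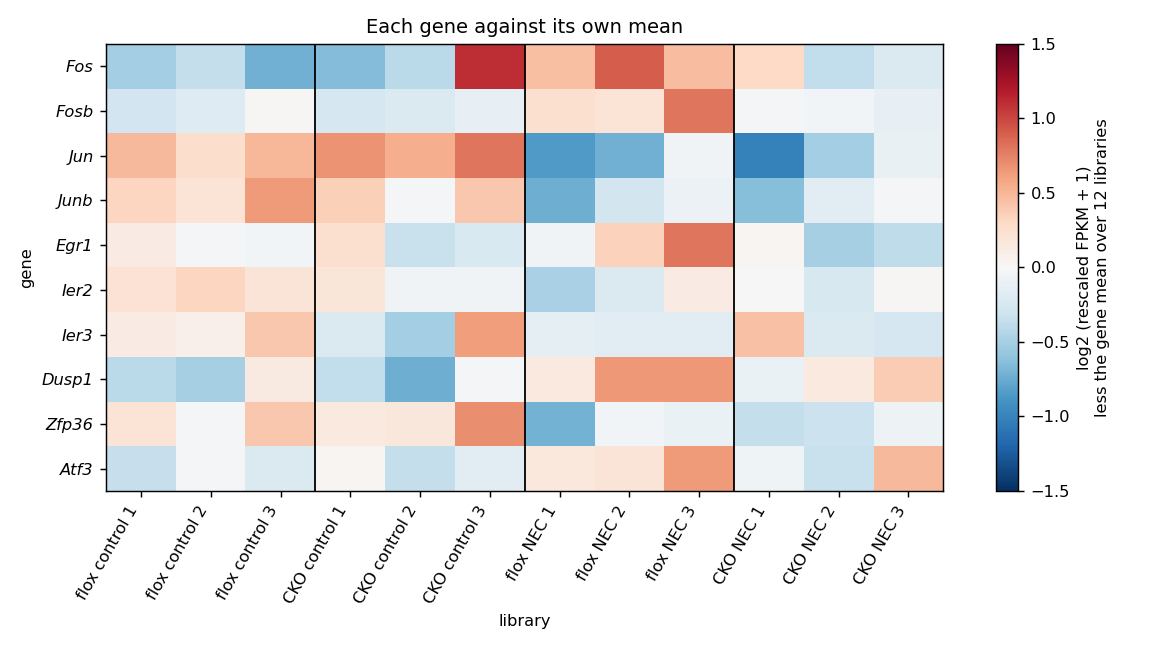
Log2(rescaled FPKM + 1) of each of the 10 genes less its mean over the 12 libraries. Jun and Junb are mostly red in the 6 control libraries and blue in the NEC libraries, and Fos is reddest in CKO control 3, where it was 22.7 rescaled FPKM.

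A wider list of 42 other immediate early genes, of which 34 were tested, also held calls both ways. In flox NEC 11 rose and 8 fell, with a median of 0.14, and in CKO NEC 8 rose and 4 fell, with a median of 0.17. Over all genes tested 28.7% passed as higher and 27.8% as lower in flox, and 17.5% and 20.4% in CKO, with medians of 0.01 and -0.03. Between genotypes none passed in NEC or control, at medians of -0.11 and -0.14, and none of 35 passed in the interaction. Dusp4, a nuclear MAP kinase phosphatase, was under 1 FPKM in every control library and entered the test only through NEC, so its values are only a description. It is among the genes counted above as risen in both genotypes. It went from 0.616 ± 0.0561 to 4.44 ± 0.762 rescaled FPKM (SD, n = 3) in flox and from 0.892 ± 0.138 to 4.09 ± 0.618 in CKO. Myc, a growth factor-induced transcription factor, rose from 5.0 ± 1.15 to 11.6 ± 2.78 in flox and from 4.25 ± 0.502 to 14.2 ± 3.5 in CKO. Per1, a clock gene that Ca2+ and glucocorticoids induce, rose from 7.14 ± 1.43 to 23.1 ± 4.86 in flox and from 7.86 ± 3.39 to 17.4 ± 1.79 in CKO.

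Socs3, the feedback inhibitor of cytokine signalling through STAT3, fell from 15.3 ± 3.23 to 7.39 ± 2.14 in flox and from 13.6 ± 0.707 to 7.61 ± 0.790 in CKO (adjusted p = 0.00754 and 0.00465). Maff, a small Maf factor, and Zfp36l1, a relative of Zfp36, also fell in both genotypes. Another relative, Zfp36l2, rose in flox from 24.9 ± 0.361 to 60.8 ± 12.7 (adjusted p = 7.03e-04). Gadd45a and Gadd45g, growth arrest genes, fell in flox, and Cyr61, a matrix protein induced by stretch, fell in CKO (-0.56 ± 0.17, adjusted p = 0.0361). The CKO calls of Cyr61 and Zfp36l1 were each lost in 8 of 14 alternatives, and the flox call of Gadd45a in 3 of 14. The zinc finger factor Klf6 was 17.4 ± 3.16 in flox control, 29.6 ± 5.74 in CKO control, 47.6 ± 6.91 in flox NEC and 37.5 ± 4.07 in CKO NEC. It rose in flox by 1.40 log2 (adjusted p = 4.12e-04), and its interaction of -1.07 ± 0.24 missed the threshold (adjusted p = 0.0574).

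Of 29 genes for the upstream factors and kinases, 28 were tested. In flox NEC 14 rose and 7 fell (median 0.27), and in CKO NEC 9 rose and 2 fell (median 0.13), beside the same 28.7% and 27.8% of all genes in flox and 17.5% and 20.4% in CKO. Atf1, a CREB relative that binds the cyclic AMP response motif, rose from 8.08 ± 0.854 to 20.4 ± 2.0 rescaled FPKM in flox and from 13.7 ± 0.738 to 20.6 ± 1.60 in CKO. Mkl1 and Mkl2, the actin-regulated partners of SRF, rose in both genotypes, as did Rps6ka3, a kinase that phosphorylates CREB. Among the genes that fell were the MAP kinase kinase genes Map2k2 and Map2k3 and the factor Batf3 in flox. Over the alternatives their changes were -0.64 to -0.39, -0.69 to -0.42 and -1.30 to -0.56. Map2k1, another MAP kinase kinase gene, fell in CKO (-0.85 to -0.58), and none of these calls was lost in an alternative. Crem, a cyclic AMP response modulator with repressor forms, averaged under 1 FPKM in NEC and entered the test through the control libraries. It is among the genes counted above as fallen in both genotypes. As a description, it was 2.27 ± 0.130 in control and 0.867 ± 0.0997 in NEC in flox, and 2.02 ± 0.0735 and 0.933 ± 0.126 in CKO. Between genotypes 0 of 28 passed in either condition. These are mRNA levels and hold no measure of kinase activity or phosphorylation.

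Heat shock genes, which dissociation and warm handling of tissue are known to induce alongside immediate early genes, were looked at beside them. In flox NEC 3 of 10 rose and 4 fell (28.7% and 27.8% of all genes), and in CKO NEC 1 rose and 5 fell (17.5% and 20.4%). The 6 calls in CKO were not stable, at 1 to 7 over the alternatives, with 1 without the filter, 3 on the deposited scaling and 1 to 3 without any 1 library. Hspd1, a mitochondrial chaperone, rose in both genotypes, and the cytosolic chaperone genes Dnajb1, Hspa8 and Hsph1 fell in both, although the Hsph1 call was lost in 7 of 13 alternatives in flox and 8 of 13 in CKO and the Hspd1 call in 5 of 14 in CKO. Dnajb1 was 17.7 ± 3.27 and 23.3 ± 2.51 rescaled FPKM in flox and CKO control and 11.3 ± 0.870 and 12.5 ± 0.856 in NEC. Hspa1a and Hspa1b were called as lower in CKO and not in flox, and each call was lost in 7 of 13 alternatives. In flox Hspe1 fell, and Bag3 and Hsp90aa1 rose, with calls lost in 0, 1 and 5 of 14 alternatives. None of the 10 passed between genotypes. Their part in the results for the members was not tested.

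Of 10 cytokine and related transcripts known as Zfp36 targets (Tnf, Il6, Il1b, Cxcl1, Cxcl2, Ccl2, Ccl3, Ptgs2, Il10 and Csf2), only Ptgs2 reached the filter, and it was not tested in CKO. Ptgs2, the inducible prostaglandin synthase, was 1.54 ± 0.707 rescaled FPKM in flox control, 0.988 ± 0.356 in CKO control, 1.91 ± 0.940 in flox NEC and 1.12 ± 0.474 in CKO NEC, with no call in the comparisons tested. The list therefore gives levels only.

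Markers of several cell types moved with NEC. All 8 fibroblast markers rose with NEC in both genotypes, from summed levels of 156 to 293 to 467 to 630 rescaled FPKM in flox and from 61.8 to 172 to 302 to 503 in CKO. Smooth muscle markers summed to 695 to 889 in flox control and 1795 to 2823 in flox NEC, and to 190 to 605 and 522 to 2028 in CKO, with 6 of 8 risen and 1 fallen in flox and 1 of 7 risen in CKO. Enterocyte markers summed to 19651 to 25120 and 6707 to 10875 in flox, and to 18101 to 27284 and 8482 to 12081 in CKO, with 4 of 8 fallen and 1, the glucose transporter Slc5a1, risen in flox, and 2 of 8 fallen in CKO. These sums are dominated by the most abundant markers.

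Between genotypes no marker passed, but all 8 smooth muscle and all 8 fibroblast markers were below flox in CKO tissue, in NEC (medians -0.83 and -0.46) and in control (-0.88 and -0.76). CKO NEC, the group with lower mean Fos and Egr1 than flox NEC, also had lower fibroblast and smooth muscle markers. CKO control had lower markers of both types than flox control too, but Fos did not go the same way there. In control Fos differed by 0.54 log2 between CKO and flox, and Egr1 by -0.13, and neither passed the threshold. The Fos value was -0.0018 without CKO control 3. General epithelial markers summed to 2263 to 2605 in flox NEC and 2272 to 3019 in CKO NEC. Macrophage markers summed to 115 to 133 in control and 52.9 to 64.4 in NEC in flox, and to 108 to 129 and 42.7 to 58.5 in CKO. Of the 6 tested, 3 fell and 1 rose with NEC in flox, and 3 fell and 0 rose in CKO. Of the neutrophil markers 5 of 8 were at 0 in all flox controls, and 7 of 8 averaged under 1 FPKM in flox NEC, with sums of 2.33 to 2.97 there and 0.385 to 1.48 in CKO NEC. The part of cell make-up in the members' values was not tested.

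The members share a compact build that the choice by name did not use. In GENCODE M21 on GRCm38, the main transcripts have 1 exon in Jun, Junb and Ier2, 2 in Egr1, Ier3 and Zfp36, and 4 in Fos, Fosb, Dusp1 and Atf3. The median over 21866 protein-coding genes is 7. Their genomic spans, from 1240 bases (Ier3) to 13045 (Atf3), are all under the median of 15726. The pentamer ATTTA, the core of AU-rich elements, is present in the 3' UTR of 9 of 10, most often in Ier3 (5 copies) and with 4 each in Fos, Jun and Dusp1, while Ier2 has 0. Per kilobase of 3' UTR the members' median is 3.56 copies, against 1.16 over 20737 genes. The longer TATTTAT, closer to what Zfp36 binds, is present in 7 of 10, with 4 copies in Ier3 and 3 each in Dusp1 and Zfp36, against 26.1% of genes. All 3 members that rose in flox NEC held it, and of the 3 that fell Jun and Ier3 held it and Junb had 0 copies.

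In the deposited coordinates, which match GRCm38, Fos (ENSMUSG00000021250) lies at chr12:85473890-85477273 and Ier3 (ENSMUSG00000003541) at chr17:35821684-35822923, both on the plus strand. On the minus strand, Jun (ENSMUSG00000052684) lies at chr4:95049034-95052222, Junb (ENSMUSG00000052837) at chr8:84974484-84978718 and Ier2 (ENSMUSG00000053560) at chr8:84661331-84662852. Also on the minus strand are Dusp1 (ENSMUSG00000024190) at chr17:26505590-26508519, Fosb (ENSMUSG00000003545) at chr7:19302696-19310051, Zfp36 (ENSMUSG00000044786) at chr7:28376784-28380253 and Atf3 (ENSMUSG00000026628) at chr1:191170296-191218039. The antisense genes Junos and Gm44710 overlap Jun and Zfp36 with 338 and 102 reads in all 12 libraries, against 24351 and 19553 for the members.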

How the data were processed

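Values are FPKM as deposited by the authors, in 2 tables (control and NEC, 6 libraries each) with a gene length column. The labels' protocols name Trizol and the NEBNext Ultra II RNA kit. The sources used here name no aligner, counter, strand setting or build. Of 54495 gene IDs found in GENCODE M21, 98.3% had identical coordinates. The deposited FPKM times gene length gave whole multiples of 1 step per library (tolerance 0.05), taken as reads. Recovery was tested on simulated data, and limma too: there its share of false calls was above the nominal level and part of the smaller changes were missed, which bears on calls near the threshold. Rescaled FPKM divides these reads by median-of-ratios factors over 12 libraries and by length. limma 3.58.1 (R 4.3.3, variance trend) was run on log2(FPKM + 1) for genes with FPKM of at least 1 in at least 3 libraries fitted, with Benjamini-Hochberg adjustment at 0.05. Fosb used exact permutation tests. Python 3.11.15 was used otherwise.

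The members and lists were chosen with earlier results of these data known. Members were always named. From each list up to 4 genes past the threshold with the smallest p in each direction were picked, or the 2 with the smallest p as values. The text describes only some of the genes so picked, and that further choice followed no fixed rule. Markers were taken from fixed lists. Alternatives were a pseudocount of 0.1, equal library medians, no filter, a stricter filter (mean FPKM at or above 5), a replicate block, 1 fit of all groups, limma-voom on reads, the deposited scaling and leaving out each library.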

Additional observations from a re-analysis of the deposited data

Results flagged for a closer look

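Atf2, a CREB/ATF factor that pairs with Jun, differed between the genotypes in its NEC change by the interaction test, at -0.69 log2 (limma, adjusted p = 0.0482). Its rescaled FPKM was 5.62 ± 0.789 (SD, n = 3) in flox control, 7.99 ± 0.118 in CKO control, 8.03 ± 0.390 in flox NEC and 6.74 ± 0.499 in CKO NEC. All 3 CKO libraries were above all flox libraries in control (lowest 7.87 against highest 6.53) and below them in NEC (highest 7.30 against lowest 7.78). The call is close to the threshold and was lost in 15 of 19 alternatives. These were no filter, equal library medians, the replicate block, the deposited scaling and leaving out any 1 library other than flox control 3 (adjusted p = 0.0517 to 0.124). Atf2 was 1 of 28 upstream factors tested.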

How the results depend on the processing

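Over the members' alternatives, 591 values kept their direction and side of the threshold, 24 lost and 10 gained a call, and 27 reversed. In flox NEC against control 6 members were called, and 3 to 8 over the 14 alternatives, with 3 without the filter. In CKO the 2 called became 1 without the filter and 1 to 2 when 1 library was left out. Atf3 between genotypes in control became -0.017 with equal library medians and -0.041 with limma-voom. In CKO NEC against control, Fos and Ier2 became 0.022 and 0.038 on the deposited scaling and Ier3 -0.011 with equal medians. Leaving out 1 library gave, for CKO NEC against control, -0.44 to 0.44 in Fos, -0.21 to 0.35 in Ier3 and -0.031 to 0.38 in Atf3. Between genotypes in NEC it gave -0.22 to 0.23 in Jun, -0.11 to 0.25 in Junb, -0.040 to 0.26 in Ier2, -0.091 to 0.27 in Ier3 and -0.19 to 0.14 in Zfp36. In control it gave -0.0018 to 0.88 in Fos, -0.56 to 0.0027 in Ier3, -0.29 to 0.079 in Dusp1, -0.035 to 0.25 in Zfp36 and -0.073 to 0.12 in Atf3. The Zfp36 interaction ranged from -0.34 to 0.053. The causes were not tested. Over all genes, the 1 call between genotypes in control became 0 without the filter, 760 with the stricter filter, 903 with the replicate block, 2166 with all groups in 1 fit and 830 without flox control 3 (0 without any other library), and the 181 interaction calls became 24 with equal medians, 41 without the filter, 417 with the stricter filter and 0 to 646 without 1 library. In those fits for control, up to 4 other immediate early and 8 upstream genes were called, and 0 members. Same-numbered libraries did not pair throughout (correlations of deviations -0.12 to 0.36). The highest value was that of number 3 between genotypes in control, where the replicate block gave the 903 calls. Whether those libraries share an effect was not tested. With the replicate block 5 members were called in flox NEC against control, Ier3 being lost (limma, adjusted p = 0.0616). Fosb, Ier3 and Egr1 rest on the fewest reads, down to 11, 98 and 119 in a library.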

Other observations

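The genes whose pattern was most like the mean profile of the 9 tested members were named by Pearson's r among 12578 genes, as a description with no test. The members did not share 1 pattern. Over the 12 libraries r was 0.90 between Jun and Junb but -0.37 between Fos and Jun, so likeness to the mean is not likeness to each member. Over the 12 libraries they were Clec4n, a C-type lectin gene (r = 0.83), Bcar3 (0.83), Prodh (0.82), Tnip1, an inhibitor of NF-kappaB signalling (0.81), and Cyr61 (0.80). On deviations from the 4 group means they were Esrra (0.98), Otub1 (0.97), Dda1 (0.96), Cox6a1 (0.96) and Epn1 (0.95), so no gene stood in both sets of 5. The libraries share their depth and preparation with every gene compared, and the 12 points fall into 4 groups.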
